A study of Homo sapiens with 6 samples.

Results

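The olfactory receptor (OR) genes of chromosome 11 were taken as a set of genes with no known role in a thyroid cell, and the position of accessible chromatin around them was read from 3 lists of ATAC-seq peaks. Members were the protein-coding genes of the RefSeq table of GRCh38.p14 on chromosome 11 whose symbol is OR followed by a number. There were 171 of them among 20056 protein-coding genes. For 3 of these, OR8U8, OR8U9 and OR9G9, the table gives coordinates along an alternate scaffold, so that they have no place on the chromosome itself, and 168 members were measured. The rule uses no measured value, although the set was proposed with earlier results of these lists known.

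ATAC-seq uses the Tn5 transposase to cut and tag open DNA. The cells were Nthy-ORI, an immortalised human line from normal thyroid epithelium. All 6 samples were kept for 24 h in phenol-red-free medium with charcoal-stripped serum. They then received NaOH vehicle (2 samples, labelled 6 h), 10 nM triiodothyronine (T3, the active thyroid hormone) for 6 h (2 samples) or 10 nM T3 for 24 h (2 samples), and nuclei from 50000 cells entered each reaction. Per group, 1 deposited list gives the peaks that both samples share. The lists held 7103 peaks (vehicle), 12385 (T3 6 h) and 60661 (T3 24 h), of which 180, 294 and 2351 lay on chromosome 11. Vehicle cells at 24 h were not analysed here, and at that time the effects of hormone and of culture time cannot be told apart. With 1 list per group there is no test between conditions, read depth is unknown, and the lack of a listed peak does not show closed chromatin. Intervals are exact 95% intervals and cover counting error only. The 3 lists also differed in replicate agreement: on chromosome 11 the median distance between replicate summits was 184.5, 233 and 45 bp, and the part of this in the results was not tested.

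Olfactory receptors are G protein-coupled receptors of the sensory neurons of the nose. Each such neuron expresses a single allele of a single receptor gene, and the rest of the family is held in compact heterochromatin marked by histone H3 lysine 9 methylation. Outside the nose most family members are not transcribed. On chromosome 11 the genes lie in dense tandem clusters. The cluster in band 11p15.4 holds the class I receptors, the families also found in fish (OR51 to OR56), and it surrounds the beta-globin genes and a group of TRIM genes. Receptor genes are short, with the coding sequence in a single exon. Of the 168 members, 74 had a RefSeq model of at most 1 kb, the median was 1103 bp and 20 models were longer than 10 kb. The median of the 1129 other chromosome 11 genes was 18221 bp.

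The labelled cell type was checked on marker genes. A gene was counted when a peak summit (the mean of both replicate summits) lay within 1 kb of either gene boundary, called a gene-end peak below. At 24 h the thyroid follicular markers PAX8, NKX2-1, FOXE1, HHEX and TSHR had one and TG, the thyroglobulin gene, did not. Of 4 epithelial markers 3 had one, with KRT8 and KRT18 counted from the same peak. For comparison, 3 of 8 markers of olfactory sensory neurons, 2 of 4 of leukocytes and 1 of 4 of fibroblasts had one. Over all protein-coding genes the 24 h share was 60.9%, and the interval of each marker group includes it. The marker counts are therefore too few to decide the cell type. In the vehicle list no marker was counted.

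OR genes were nearly free of gene-end peaks in every list. In vehicle 0 of 168 members had one, against 10 of the 1129 other protein-coding genes of chromosome 11 (0.886%). After 6 h of T3 the count was again 0 of 168, against 77 other genes (6.82%). After 24 h of T3 it was 4 of 168 (2.38%, interval 0.65 to 5.98), against 658 other genes (58.3%, interval 55.3 to 61.2). Over all 19897 placed protein-coding genes the shares were 1.31%, 10.8% and 60.9%. In vehicle the background was so low that a count of 0 does not set the receptors apart from other genes. At 24 h the interval of the receptors lies far below that of the rest of the chromosome. The 4 genes were OR52K1, OR52N2, OR56B4 and OR52W1.

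Because a short gene offers less sequence around its ends, the counts were also taken per length. The windows of 1 kb around the boundaries of the members covered 0.572 Mb and held 4 summits at 24 h, or 6.99 per Mb (interval 1.90 to 17.9). Those of the other genes covered 4.02 Mb and held 608 summits, or 151 per Mb (139 to 164). Among other chromosome 11 genes no longer than 2 times the median receptor gene, a comparison chosen after seeing the data, 25 of 76 (32.9%, 22.5 to 44.6) had a 24 h gene-end peak. COX8A, a subunit of cytochrome c oxidase, and FAU, which encodes ribosomal protein S30, were among those with one. The receptors thus also stood lower per Mb of window and beside genes of like length.

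Other gene groups gave a range of shares at 24 h. OR genes of other chromosomes had a gene-end peak in 21 of 221 cases (9.50%, 5.98 to 14.2), including OR2W3, OR2L13 and OR3A1, and in 8 cases at 6 h and 3 in vehicle. The interval of these 221 genes overlaps that of the chromosome 11 members only at its edge. A list of 73 tissue-restricted chromosome 11 genes of other families was chosen with earlier results of these data known. Of these 73 genes, 12 had a gene-end peak (16.4%, 8.79 to 27.0). This interval overlaps that of the OR genes of other chromosomes. Among these the MS4A genes, membrane proteins mostly of blood cells, had 0 of 16, the beta-globin genes 0 of 5, the keratin-associated proteins 1 of 11, the MMP proteases 1 of 10 and the MRGPR sensory receptors 2 of 8. The TRIM genes, a family of E3 ubiquitin ligases that includes antiviral factors, had 8 of 23, with TRIM6 and TRIM6-TRIM34 counted from the same peak. TRIM66 shared a peak with its neighbour RPL27A, a broadly expressed gene. The 12 of 73 thus rested mostly on the TRIM genes, and how widely these are expressed was not examined. Of 20 broadly expressed chromosome 11 genes, 19 had a 24 h peak (95%, 75.1 to 99.9), among them SF1 (splicing factor 1) with a signal of 32.6, RPS13 with 30.9 and RPL27A with 28.9. FTH1, the ferritin heavy chain, was the exception. At 6 h, 2 of these 20 did, and in vehicle 0. The plot of shares by gene group shows the main groups.

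**Figure D1:**
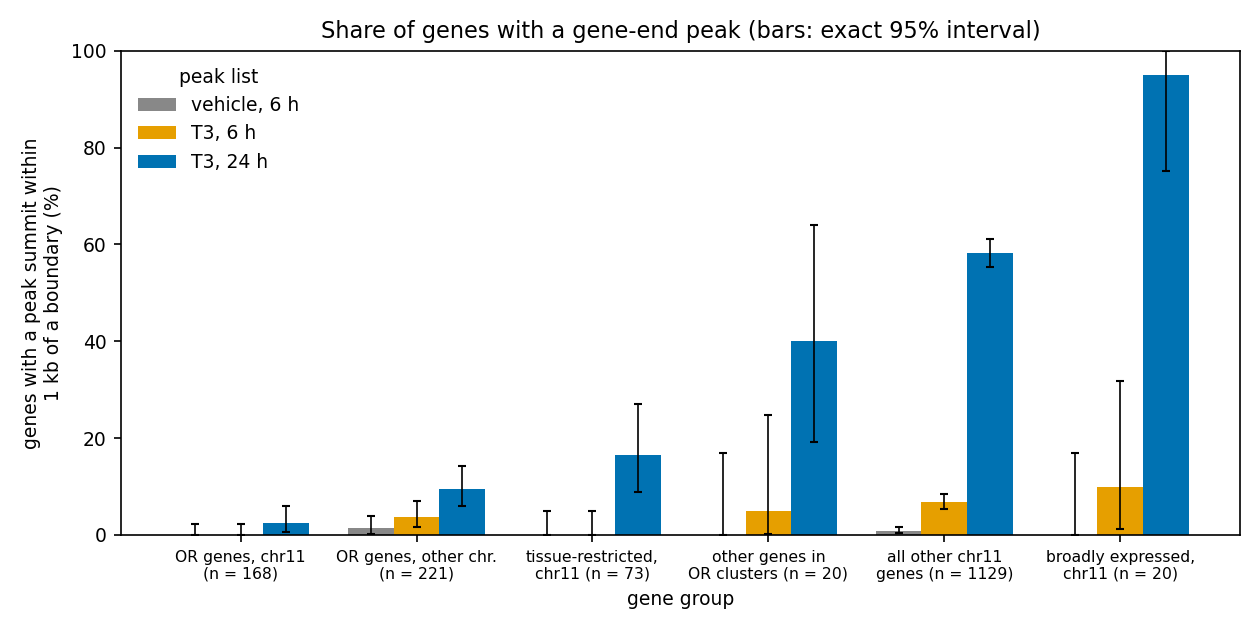
Share of genes (%) with a peak summit within 1 kb of a gene boundary in 6 gene groups, for the vehicle, T3 6 h and T3 24 h lists, with exact 95% intervals. At 24 h the share was 2.38% for the OR genes of chromosome 11, 58.3% for the other genes of the chromosome and 95% for the broadly expressed ones.

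The 4 receptor genes with a gene-end peak all belonged to class I. Class I had 4 of 55 members with a peak and class II 0 of 113. All 55 class I members lie in the 11p15.4 cluster, so receptor class and chromosomal place cannot be told apart. Signals of the peaks are given as deposited, for each replicate column in turn. Their scale is not stated, and they were ranked only within the 24 h list.

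OR52N2 had the strongest of the 4 peaks, at chr11:5808482-5809427 (hg38). Its signal was 9.43 in the first replicate column and 8.42 in the second, at percentile 74.5 of all 24 h peaks. The replicate summits lay 68 bp apart, and their mean lay 296 bp before the annotated start of the gene, which is on the plus strand. The nearest other protein-coding gene, TRIM22, was 97765 bp away. OR52K1 had a peak at chr11:4492853-4493508, with signals of 4.58 and 8.85, percentile 55.8 and summits 19 bp apart. This peak lay 102.5 bp inside the far end of the gene and 10748.5 bp from its annotated start. OR56B4 had a peak at chr11:6107615-6108483, with signals of 5.03 and 4.41, percentile 21.1 and summits 245 bp apart. It lay inside the gene of 1152 bp. OR52W1 had the weakest, at chr11:6198546-6199404, with signals of 3.62 and 4.45, percentile 3.99 and summits 1 bp apart. It lay 550.5 bp before the annotated start. Its irreproducible discovery rate (IDR), the deposited measure of how well a peak's rank agrees between replicates, was 0.046, near the 0.05 that is the highest in the lists. So 1 of the 4 peaks ranked in the upper part of the list and lay at an annotated start, and the remaining ones were of middling or low rank or lay elsewhere in the gene. With IDR of at most 0.01, OR52K1 and OR52N2 were left, and in lists cut to the 7103 strongest peaks no receptor gene was left at 24 h, against 148 other chromosome 11 genes (13.1%).

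No further member had a summit within 1 kb of a boundary. The next was OR2AT4, at 1630 bp, followed by OR52H1 at 2318 bp and OR51M1 at 2867.5 bp. Other peaks lay inside receptor genes with long models. OR51B5, with a model of 165335 bp, held 3 peaks at 24 h, of percentiles 94.0, 58.6 and 54.9. OR9Q1, with 157736 bp, held 3, of percentiles 77.2, 15.8 and 15.4. OR56A3 and OR2AT4 held 1 each, of percentiles 18.8 and 3.09, and in OR2AT4 the replicate summits lay 640 bp apart. No vehicle or 6 h summit lay inside a member. The plot of replicate signals shows the 38 peaks at 24 h that lay in a cluster or a receptor gene.

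**Figure D2:**
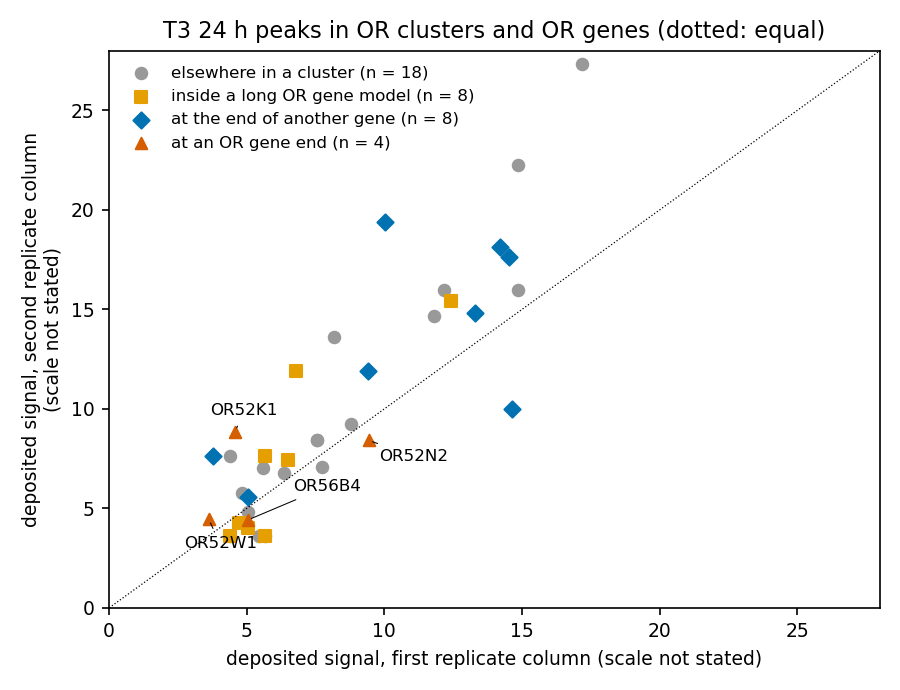
Deposited signal of the 38 T3 24 h peaks in OR clusters or OR genes, in the first (x) and second (y) replicate column, by place, with the 4 peaks at OR gene ends named; the dotted line marks equal signals. OR52N2 lies highest of the 4 by summed signal, and the strongest peaks lie elsewhere in a cluster.

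The promoter window of OR52N2 held more CG dinucleotides than that of any other chromosome 11 receptor with a window. RefSeq promoter windows of 300 bases, 250 before and 50 after a start (GRCh38.p14), were found for 135 of the 168 members and 818 of the 1129 other genes. For a gene with several windows the one with most CG dinucleotides was used. CG dinucleotides are rare in the human genome but frequent in the CpG islands at the starts of broadly expressed genes. The median receptor window held 1 CG (range 0 to 14) at a GC content of 37.0%, and the median window of the other chromosome 11 genes held 24 at 63.7%. OR52N2, with 14, was the chromosome 11 receptor with most, and OR51S1 followed with 6. Windows of OR genes of other chromosomes held up to 39. In 64 of the 135 receptor windows (47.4%) the annotated first base opens an ATG, against 3.55% of the other chromosome 11 windows. For these genes the annotated start is the start codon, so their windows may not hold the start of transcription. The windows shown here are those of OR52N2 and OR52W1, which a 24 h peak overlapped, of OR52K1, whose peak lay at the other end of the gene, of OR4C13, the member with a window farthest from a 24 h summit (1576 kb), and of TRIM68 and TRIM21, neighbours in the 11p15.4 cluster with 24 h peaks at their starts. Each reads 5′ to 3′ on the gene's strand, with CG dinucleotides in capitals.
OR52N2: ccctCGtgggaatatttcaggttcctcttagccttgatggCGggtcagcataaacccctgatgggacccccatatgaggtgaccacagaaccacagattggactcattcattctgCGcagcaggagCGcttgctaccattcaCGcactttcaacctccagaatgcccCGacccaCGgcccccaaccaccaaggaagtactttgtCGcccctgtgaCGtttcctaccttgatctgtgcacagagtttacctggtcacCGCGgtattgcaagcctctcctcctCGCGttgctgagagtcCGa
OR52W1: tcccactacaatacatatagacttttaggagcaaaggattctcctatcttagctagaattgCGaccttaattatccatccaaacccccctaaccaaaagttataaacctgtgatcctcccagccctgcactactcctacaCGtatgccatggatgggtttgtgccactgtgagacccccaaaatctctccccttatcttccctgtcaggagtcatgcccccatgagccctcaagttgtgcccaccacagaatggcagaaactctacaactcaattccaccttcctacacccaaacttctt
OR52K1: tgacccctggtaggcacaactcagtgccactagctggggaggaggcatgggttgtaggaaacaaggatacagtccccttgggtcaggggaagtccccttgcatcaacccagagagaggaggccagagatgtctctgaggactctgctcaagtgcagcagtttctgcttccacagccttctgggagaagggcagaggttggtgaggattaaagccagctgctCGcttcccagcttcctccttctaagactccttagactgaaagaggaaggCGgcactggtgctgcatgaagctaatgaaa
OR4C13: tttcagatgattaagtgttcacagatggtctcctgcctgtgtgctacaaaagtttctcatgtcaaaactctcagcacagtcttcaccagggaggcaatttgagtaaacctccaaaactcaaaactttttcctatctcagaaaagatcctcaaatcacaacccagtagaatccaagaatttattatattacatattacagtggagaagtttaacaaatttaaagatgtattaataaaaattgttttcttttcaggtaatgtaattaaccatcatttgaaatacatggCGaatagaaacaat
TRIM68: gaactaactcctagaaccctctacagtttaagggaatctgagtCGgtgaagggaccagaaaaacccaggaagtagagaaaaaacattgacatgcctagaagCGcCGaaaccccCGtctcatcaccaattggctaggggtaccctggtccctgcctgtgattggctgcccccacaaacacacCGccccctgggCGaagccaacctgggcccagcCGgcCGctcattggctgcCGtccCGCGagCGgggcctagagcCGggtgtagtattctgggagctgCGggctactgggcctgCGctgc
TRIM21: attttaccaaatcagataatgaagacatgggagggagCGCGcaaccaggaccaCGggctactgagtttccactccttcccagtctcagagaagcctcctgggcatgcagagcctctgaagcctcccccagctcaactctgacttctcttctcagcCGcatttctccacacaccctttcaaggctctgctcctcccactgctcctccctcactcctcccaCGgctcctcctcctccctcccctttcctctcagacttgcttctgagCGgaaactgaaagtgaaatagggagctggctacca

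The windows lie at chr11:5808674-5808973 (OR52N2, plus strand), chr11:6198974-6199273 (OR52W1, plus), chr11:4482396-4482695 (OR52K1, plus), chr11:49952141-49952440 (OR4C13, plus), chr11:4608182-4608481 (TRIM68, minus) and chr11:4393653-4393952 (TRIM21, minus). The OR52N2 window, with 14 CG at a GC content of 55.3%, is like that of TRIM68, with 15 at 60.0%. OR52W1 and OR52K1 have 2 each, OR4C13 has 1 and TRIM21 has 6. The OR52W1 window is one of those in which an ATG follows the start directly. Of all 135 receptor windows, 2 were overlapped by a 24 h peak (1.48%), against 63.6% of the other chromosome 11 windows.

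Other genes with windows poor in CG also seldom had a gene-end peak. Such a peak can lie at either boundary, so it is not always near the window, as for OR52K1. Among other chromosome 11 genes, in classes chosen after seeing the data, 494 of 616 with 10 or more CG had a 24 h gene-end peak (80.2%, 76.8 to 83.3). The count was 34 of 110 (30.9%, 22.5 to 40.4) with 4 to 9 CG and 11 of 92 (12%, 6.12 to 20.4) with up to 3. Of the receptors, 128 fell in the class of up to 3 CG, and 2 of them had a gene-end peak (1.56%, 0.19 to 5.53). Of 6 chromosome 11 receptors with 4 to 9 CG none had a peak, and the single one with 10 or more, OR52N2, had one. Within the class of fewest CG the shares of receptors and other genes were thus closer than over all genes, and their intervals did not overlap. The plot of base composition shows most receptors at up to 3 CG, a range they share with 92 other genes. Most other genes lie at higher counts, and OR52N2 lies among these.

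**Figure D3:**
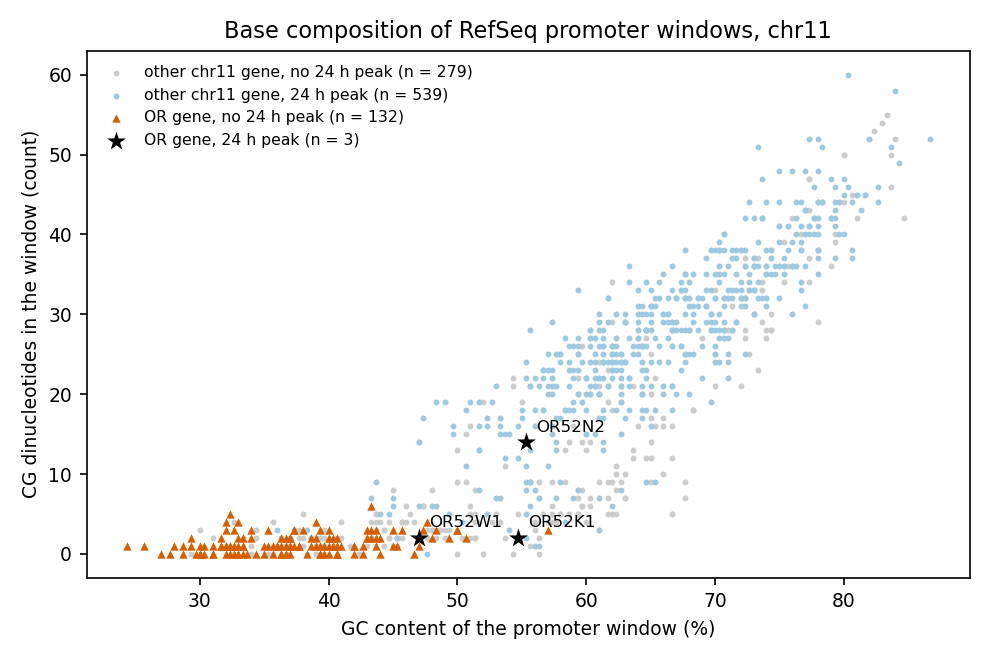
GC content (%, x) and number of CG dinucleotides (y) in the RefSeq promoter window of 135 OR genes and 818 other genes of chromosome 11, marked by whether the gene had a T3 24 h gene-end peak. Most OR genes lie at up to 3 CG, and OR52N2 lies at 14.

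Short sequence motifs were counted in the same windows on both strands. TAATTA, a core bound by homeodomain factors such as LHX2, was in 33 of 135 receptor windows (24.4%), against 2.69% of the other chromosome 11 windows and 2.75% of all other protein-coding windows. TATAAA, the TATA box, was in 48 (35.6%), against 8.56% and 8.79%. Both motifs consist of A and T only, and receptor windows have more of these bases. The palindromic binding motif of EBF (Olf-1) factors was in 2 (1.48%), against 1.83% and 1.46%. OR52N2 and OR52K1 held none of the 3, OR52W1 held TAATTA and TATAAA, and OR4C13 held TAATTA. Matches describe letters in a window only.

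The clusters as a whole were then measured. Runs of at least 5 members with neighbours at most 500 kb apart gave 7 clusters with 159 members, 5.57 Mb in all, or 4.15% of the 134 Mb between the first and last protein-coding gene of the chromosome. The other 9 members lay alone or in small groups, and none had a gene-end peak. In the vehicle list 1 peak lay in the clusters, or 0.18 per Mb (interval 0.0045 to 1.0), against 1.39 per Mb (1.19 to 1.61) on the rest of the chromosome. In the 6 h list 3 did, 0.539 per Mb (0.111 to 1.58) against 2.25 (2.0 to 2.53). In the 24 h list 37 did, 6.65 per Mb (4.68 to 9.16) against 17.9 (17.2 to 18.7). As deposited, all 3 lists were thinner in the clusters, but this did not hold for strong peaks at 24 h. Among the 7103 strongest 24 h peaks, a number equal to the vehicle list, the clusters held 11, or 1.98 per Mb (0.987 to 3.54), and the rest of the chromosome 1.71 (1.49 to 1.95). The lower 24 h density was thus seen only with the weaker peaks included. Among the 7103 strongest 6 h peaks the clusters held 0.359 per Mb (0.0435 to 1.298) and the rest 1.26 (1.07 to 1.47), with overlapping intervals. Ranked by the first replicate column, the 6 h clusters held 0 (0 to 0.663) and the rest 1.298 (1.11 to 1.51), without overlap. For vehicle the gap rested on the 4.62 Mb between OR4C12 and OR4C46, which span the centromere: 92 of the 180 vehicle peaks of chromosome 11 lay there. Without that stretch, an alternative chosen after seeing the data, the rest of the chromosome held 0.701 vehicle peaks per Mb (0.562 to 0.865), inside the interval of the clusters. The same stretch held 39 peaks at 6 h and 10 at 24 h, and without it the rest of the chromosome held 2.02 and 18.5 per Mb. How reads mapped there, or among the near-identical receptor copies, was not examined.

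The clusters also hold few other genes. With the 20 other protein-coding genes of the clusters and 1 kb around them left out, the clusters held 27 peaks at 24 h, 5.42 per Mb (3.57 to 7.89). The parts of chromosome 11 outside clusters and outside all protein-coding genes held 11.8 per Mb (11 to 12.6), so DNA between genes was also richer in peaks than the clusters in the full 24 h list. Without the stretch between OR4C12 and OR4C46, again chosen after seeing the data, it held 12.5 (11.6 to 13.4). At 6 h the clusters held 0.402 (0.049 to 1.45) by this count and the gene-free DNA without that stretch 1.5 (1.21 to 1.84), with overlapping intervals. Of the 37 peaks at 24 h, 8 lay at an end of another gene, 4 at an end of a receptor gene, and 16 over 1 kb from any protein-coding gene.

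By distance from the cluster edges, in bins of 100 kb, the 24 h density ran from 8.85 per Mb (4.57 to 15.5) in the outermost inner bin to 15 (9.29 to 22.9) just outside and 24.9 (17.2 to 34.8) at 200 to 300 kb outside. Over the 10 outer bins it lay between 7.5 and 24.9. Inside, between 200 and 800 kb from an edge, it lay at or below 7.5 per Mb. At 800 to 900 kb inside, which only the 2 largest clusters reach, 4 peaks in 0.247 Mb gave 16.2 (4.42 to 41.5). The outer bins share flanking regions of several clusters and do not include other clusters. The intervals just inside and just outside the edge overlap, so a step at the edge itself was not resolved. The plot of density by distance shows these values.

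**Figure D4:**
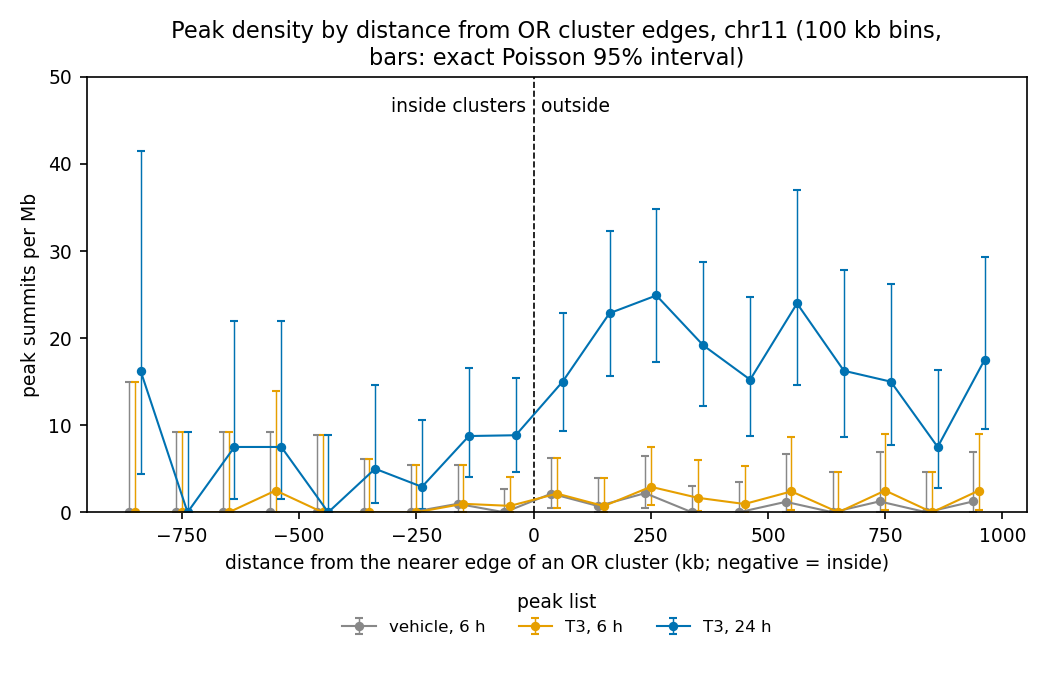
Peak summits per Mb (y) by distance from the nearer OR cluster edge in 100 kb bins (x, negative inside) for the 3 lists, with exact Poisson 95% intervals; the innermost bin, with 0.0329 Mb of sequence and 1 peak at 24 h, is not drawn. The 24 h density is 8.85 per Mb in the bin inside the edge and 24.9 at 200 to 300 kb outside.

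The clusters were not alike. The 11p15.4 cluster (OR52B4 to OR52W1, chr11:4367263-6200186, 55 members) held 19 peaks at 24 h, 10.4 per Mb, and 0 in the other 2 lists. The clusters from OR4A16 to OR5AK2 (46 members, 1.65 Mb) and from OR6X1 to OR8A1 (22 members, 0.818 Mb) held 3 and 1, or 1.82 and 1.22 per Mb. Those from OR2AG2 to OR2D3 (8 members) and OR4B1 to OR4A47 (7 members) held none in any list. The cluster from OR9Q1 to OR5B21 (13 members) held 5 at 24 h, 10.3 per Mb, and the 1 vehicle peak, 39711 bp from OR5B17. The cluster from OR5AN1 to OR10V1 (8 members, 0.355 Mb) held 9 at 24 h, 25.4 per Mb, and 2 at 6 h. It is also the cluster with OSBP, an oxysterol-binding protein, and PATL1, an mRNA decay factor, and 0 of its 9 peaks lay at an end of a receptor gene. So the cluster with the highest density had no receptor peak, and the 4 receptor peaks were all in the 11p15.4 cluster.

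The non-receptor genes that lie among the receptors had gene-end peaks more often than these. Of 20 such genes, 8 had one at 24 h (40.0%, 19.1 to 64.0), 1 at 6 h and 0 in vehicle. They were TRIM21, TRIM68, TRIM5, TRIM6 and the TRIM6-TRIM34 readthrough, OSBP, PATL1 and VWA5A, with TRIM6 and TRIM6-TRIM34 counted from the same peak. In the 11p15.4 cluster alone these were 5 of 15 other genes beside 4 of 55 receptors. The peak of TRIM68 had signals of 14.5 and 17.7 (percentile 97.5), that of TRIM5 13.3 and 14.8 (percentile 94.3) and the one at the start of TRIM21 9.41 and 11.9 (percentile 83.8), with a second, at percentile 34.2, at its other end. Their summits lay 36.5, 38.5 and 24.5 bp from the annotated starts. All 3 of these peaks at starts ranked above the 4 receptor peaks, and the one at TRIM21 lay 25340.5 bp from OR52B4. PATL1 was the gene with a peak at both T3 times. Its 6 h peak had signals of 3.79 and 5.31 (percentile 16.3) with replicate summits 705 bp apart, and its 24 h peak 10.0 and 19.4 (percentile 95.5). Between lists, no other pair of cluster peaks overlapped over 50% or more of the shorter one. Such overlap was not counted outside the clusters, so low sharing is not shown to be a trait of them.

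Of the 14 protein-coding genes that border the 7 clusters, 6 had a 24 h gene-end peak: MRPL17, PTPRJ, ZNF202, ZNF215, LRRC55 and LPXN. Among all 152 other genes outside a cluster but within 1 Mb of one, 83 did (54.6%), so the borders were not richer in such peaks. STX3, a syntaxin of membrane fusion, had one in the vehicle and 6 h lists but not in the 24 h list.

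None of the 5 strongest 24 h peaks inside the clusters had its summit within 1 kb of a receptor gene. The first by signal at 24 h was a narrow one of 312 bp at chr11:59706918-59707229, with signals of 17.2 and 27.3 (percentile 99.9). It lay 5867.5 bp from OR10V1 and 38011.5 bp from PATL1, the nearest other protein-coding gene. The second, of 363 bp with signals of 14.9 and 22.3 (percentile 99.2), lay 10789.5 bp from HBE1, the embryonic beta-like globin gene, and 20279.5 bp from OR51B4. The others of the 5 strongest lay 155.5 bp from a boundary of OSBP (percentile 97.6), at the start of TRIM68 and, with signals of 14.9 and 16, 135 bp from the start of the noncoding gene LINC02739. In the 6 h list the strongest lay 11378 bp from OR4D9, with signals of 3.44 and 7.68. Peaks in the clusters were not weaker as a group: their median percentile at 24 h was 62.8, against 50.3 for the rest of chromosome 11, and 24 of 37 had the highest possible IDR score (64.9% against 59.3%).

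Receptor genes also lay farther from the nearest summit. At 24 h the median receptor gene lay 81.4 kb from a summit (quartiles 33.6 and 190 kb), and the median other gene of chromosome 11 lay 0.021 kb away (0 and 1.58 kb), where 0 means a summit inside the gene. This was so for 6 receptor genes and 545 other genes. Distances were not matched for gene length, and the other genes were longer (median 18221 bp against 1103 bp). Within 10 kb of a summit were 20 receptor genes (11.9%) and 952 others (84.3%). At 6 h the medians were 468 and 95.1 kb, and in vehicle 671 and 543 kb. Among the 7103 strongest 24 h peaks the medians were 274 and 128 kb, closer as a ratio but farther apart in kb. OR genes of other chromosomes had a 24 h median of 19.8 kb. Among clusters the 24 h median ran from 40.1 kb in the 11p15.4 cluster to 196 kb in those from OR4B1 to OR4A47 and from OR4A16 to OR5AK2. Genes of a cluster share their surroundings, so these distances are not independent of each other. In the plot of distances the receptor curves lie to the right of those of other genes at 24 h and 6 h.

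**Figure D5:**
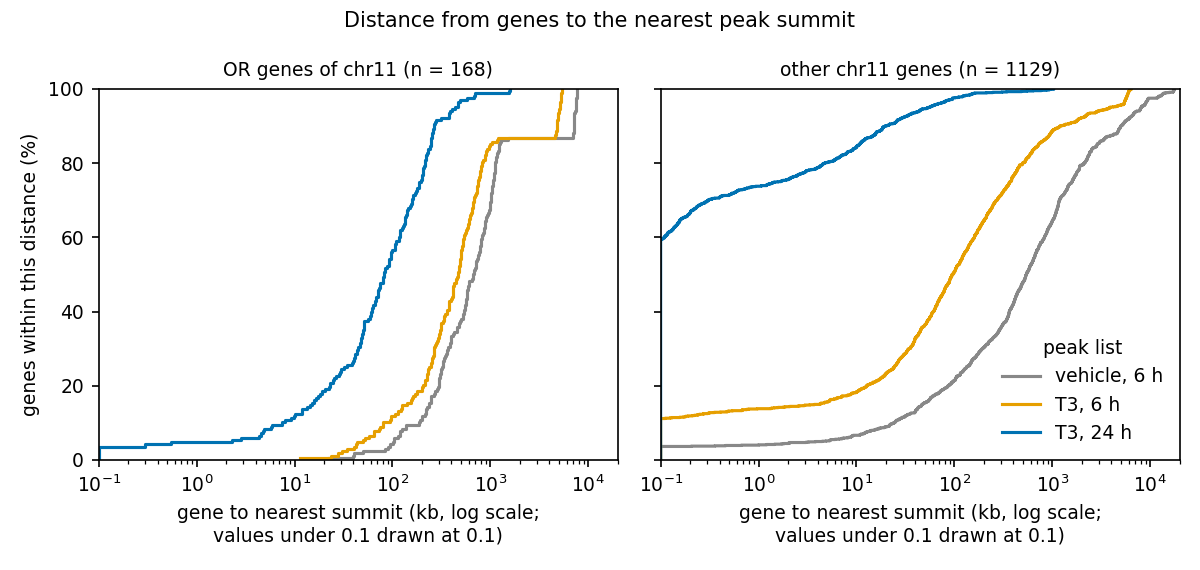
Cumulative share of genes (%, y) by distance to the nearest peak summit (kb, log scale, x) for 168 OR genes (left) and 1129 other genes (right) of chromosome 11 in the 3 lists. The 24 h median is 81.4 kb for OR genes and 0.021 kb for other genes.

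Genes that serve receptor expression were read from a fixed list. Of 9 transcription regulators of receptor genes or neurons, 7 had a 24 h gene-end peak, among them LHX2, a homeodomain factor that binds receptor enhancers, at percentile 37.8, EBF1 at percentile 82.3 and ATF5, which responds to receptor protein, at percentile 64.3 in a peak shared with IL4I1 and NUP62. LDB1, the partner of LHX2, had none. Of 10 signalling genes, 4 had one: GNB1, RIC8B, GNAL (the olfactory G protein alpha subunit, percentile 78.4) and CNGA4, a subunit of the olfactory cation channel. The CNGA4 peak was also counted for its neighbour FHIP1B. ADCY3, CNGA2, CNGB1, ANO2, GNG13 and OMP, the olfactory marker protein, had none in any list. Of 3 genes of receptor trafficking, REEP1 and RTP2 had one, at percentiles 20.7 and 25.1. Of 11 genes of heterochromatin and receptor silencing, 10 had a 24 h peak, among them SETDB1, an H3K9 methyltransferase (percentile 95.3), CBX3 (96.2) and CBX5 (87.3), which encode HP1 proteins and share their peaks with HNRNPA2B1 and HNRNPA1, and LBR, the lamin B receptor of the nuclear envelope (19.4). Beside the 60.9% of all protein-coding genes, the interval of the signalling genes (12.2 to 73.8) and that of the silencing genes (58.7 to 99.8) both include the background. At 6 h the counts were 0 of 9, 3 of 10, 0 of 3 and 2 of 11, and in vehicle 0 in each. Over all protein-coding genes the 6 h share was 10.8%, which the interval of the signalling genes (6.67 to 65.25) includes.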

How the data were processed

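ATAC-seq was measured in 6 Nthy-ORI samples in 3 groups of 2, with no label on whether paired samples are separate cultures. Per the submitters' processing notes, the build was hg38 and the tools were Bowtie2, MACS2, DiffBind, Trim Galore and CASAVA 1.7; their settings were not stated. The authors deposited 1 list per group in the 20-column layout of the IDR method. It holds, as deposited, a score (the scaled IDR), the −log10 of the IDR, and a signal per replicate, which the authors summed per peak and whose normalization is not stated. The 2 replicate columns carry no sample number.

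Peak position was the mean of both replicate summits. Genes were RefSeq GRCh38.p14, whose table gives no strand; rows placed on alternate scaffolds were left out, and strand came from the promoter table. Counts, shares (Clopper-Pearson) and densities (Poisson) carry 95% intervals. The code was checked on simulated data. Scripts ran in Python 3.11.15 with scipy 1.17.1, pandas 2.3.3 and numpy 2.4.6. Genes were named by rule: members with a gene-end peak, the 5 strongest cluster peaks per list, cluster borders, and the gene lists. Members and lists were chosen with earlier results of these data known. Alternatives were IDR of at most 0.01, equal list length, replicate summits within 100 bp, other windows and other cluster definitions. One marker gene is not reported here.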

Additional observations from a re-analysis of the deposited data

How the results depend on the processing

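The receptor count at vehicle and 6 h was 0 under every alternative tried. At 24 h it was 2 with IDR of at most 0.01, 0 with lists of equal length (also ranked by either replicate column), 11 within 5 kb, 17 within 10 kb and 8 with any overlap of the gene and 1 kb, and 3 or 4 otherwise. The other chromosome 11 genes numbered 148 at 24 h with equal length (149 and 146 ranked by the first and second replicate column). At 6 h they numbered 18 with IDR of at most 0.01, 42 with equal length (40 by the second column), 26 with summits within 100 bp, 118 within 5 kb, 166 within 10 kb and 159 with any overlap. In vehicle they numbered 2 with IDR of at most 0.01 and also 2 with summits within 100 bp, 27 within 5 kb, 52 within 10 kb and 48 with any overlap. The cluster density at 24 h was 1.98 per Mb with equal length (1.80 and 1.98 by column), against 1.71 on the rest of the chromosome (1.73 and 1.90 by column), so the lower cluster density was absent there. It was below the rest with IDR of at most 0.01 (5.03 against 12.7) and with summits within 100 bp (5.39 against 13.0), and 10.3 with clusters joined over gaps of up to 1 Mb. At 6 h it was 0 with IDR of at most 0.01, with summits within 100 bp and by the first column, 0.209 with clusters of at least 10 genes and 0.915 with gaps of up to 1 Mb. In vehicle it was 0 with IDR of at most 0.01 and 0.343 with gaps of up to 1 Mb. With IDR of at most 0.01 or summits within 100 bp, the vehicle and 6 h intervals of clusters and rest overlapped. With equal length the 6 h intervals overlapped by summed signal and by the second column, but not by the first column. The rest of chromosome 11 held 0.701 vehicle peaks per Mb without the interval between OR4C12 and OR4C46. The median distance of receptor genes was 274 kb at 24 h and 757 kb at 6 h with equal length, and 1283 kb at 6 h and 1525 kb in vehicle with summits within 100 bp. Fewer peaks per list, or wider windows, are part of these alternatives by construction. Under all of them the share of receptor genes at 24 h stayed below that of the other chromosome 11 genes. Sharing between lists kept its counts with an overlap of 1 bp or of 50% of each peak. No paired analysis was possible because each list merges both samples of its group, and for the same reason no sample could be left out.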

Other observations

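Receptor pseudogenes of chromosome 11 also had few peaks. Of 205 pseudogenes with an OR symbol, 2 had a gene-end peak at 24 h (0.976%, exact interval 0.118 to 3.48), beside 2.38% of the coding receptors and 58.3% of the other protein-coding genes of the chromosome. The difference from the coding receptors was not tested. They were OR51A9P and OR52H2P, both of class I families. OR4D7P had one at 6 h and OR5BC1P one in vehicle, the single peaks of each list at a receptor-type gene of the chromosome. No pseudogene appeared in more than 1 list.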
